A study of Mus musculus with 19 samples.

Results

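The comparison set cells that had been made to differentiate for 72 h in the presence of tumor necrosis factor (TNF) against cells that had differentiated for 1 week without it. All cells were grown from neurospheres (NSPs), floating cultures of neural stem cells from the ventricular zone of wild-type C57BL/6J mouse embryos at embryonic day 14. Differentiation towards astrocytes was started in both groups by changing to a medium with serum, and the first group received TNF at 50 ng/ml while the second was untreated. The libraries were taken by their labels, 3 of 72 h TNF and 4 of 1 week, together 7 of the 19 ATAC-seq libraries of the series. All 90154 peaks of the table were considered, of which 88919 passed a filter on low reads and were tested. The groups differ in age and in TNF at once, so the effects of TNF and of time cannot be told apart from these 7 libraries. The 3 untreated libraries of 72 h were therefore set beside them, because 72 h TNF minus 1 week is the sum of a TNF step (72 h TNF minus 72 h) and a time step (72 h minus 1 week). The labels say that neurospheres came from single brains but not which library came from which brain, so the p-values measure the spread between these libraries, which may be technical. No sorting of the cells is described for ATAC-seq.

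ATAC-seq maps open chromatin with a transposase that cuts where DNA is accessible and leaves sequencing adapters there, and open promoters and enhancers gather more reads. TNF is a cytokine that binds receptors on the cell surface and releases NF-kB, a family of transcription factors, from its inhibitors, whereupon it enters the nucleus and binds the promoters and enhancers of inflammatory genes. Astrocytes clear glutamate and potassium, supply neurons with metabolites and, after injury or inflammation, become reactive and make complement, chemokines and acute phase proteins. During development the Notch, BMP and STAT3 pathways with the NFI and SOX factors lead neural stem cells to this fate.

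The promoters of 9 genes described below, chosen after their values were seen, are shown first. Each line gives the 250 bases before the start of a gene, 5′ to 3′ on the strand of the gene, as RefSeq holds them for GRCm38.p6, with matches to the NF-kB consensus or to the AP-1 letters TGANTCA in capitals, both searched on both strands. A sequence and its reverse can both match, and overlapping matches merge into 1 run of capitals. The first 7 belong to promoters that were more open at 72 h TNF, the last 2 to promoters that were more open at 1 week.
Tnip1 (chr11:54962941-54963190, minus strand): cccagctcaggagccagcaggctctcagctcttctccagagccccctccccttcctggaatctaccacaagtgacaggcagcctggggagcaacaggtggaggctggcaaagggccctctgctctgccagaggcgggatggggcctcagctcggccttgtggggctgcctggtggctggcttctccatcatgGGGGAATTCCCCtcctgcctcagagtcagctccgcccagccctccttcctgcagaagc
Tlr2 (chr3:83841609-83841858, minus strand): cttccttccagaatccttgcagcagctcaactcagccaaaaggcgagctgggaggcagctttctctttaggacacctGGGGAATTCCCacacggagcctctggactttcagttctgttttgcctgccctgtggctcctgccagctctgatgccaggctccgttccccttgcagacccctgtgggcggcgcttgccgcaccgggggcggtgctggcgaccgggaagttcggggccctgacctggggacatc
Casp4 (chr9:5308599-5308848, plus strand): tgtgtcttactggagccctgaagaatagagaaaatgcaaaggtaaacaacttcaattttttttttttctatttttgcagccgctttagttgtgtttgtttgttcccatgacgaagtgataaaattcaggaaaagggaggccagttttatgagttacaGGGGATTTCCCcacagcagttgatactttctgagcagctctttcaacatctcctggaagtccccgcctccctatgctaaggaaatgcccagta
Cxcl10 (chr5:92348890-92349139, minus strand): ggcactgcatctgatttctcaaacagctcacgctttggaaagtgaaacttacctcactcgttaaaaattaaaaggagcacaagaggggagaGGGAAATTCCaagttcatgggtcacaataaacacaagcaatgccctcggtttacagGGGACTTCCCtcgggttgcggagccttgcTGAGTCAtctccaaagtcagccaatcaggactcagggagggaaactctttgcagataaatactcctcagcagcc
Nfkbia (chr12:55492648-55492897, minus strand): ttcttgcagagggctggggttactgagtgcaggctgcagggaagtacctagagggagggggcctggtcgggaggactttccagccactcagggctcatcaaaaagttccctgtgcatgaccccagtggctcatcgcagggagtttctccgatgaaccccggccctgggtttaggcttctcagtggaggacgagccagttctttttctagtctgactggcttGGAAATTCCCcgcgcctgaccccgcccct
H2-K1 (chr17:34000348-34000597, minus strand): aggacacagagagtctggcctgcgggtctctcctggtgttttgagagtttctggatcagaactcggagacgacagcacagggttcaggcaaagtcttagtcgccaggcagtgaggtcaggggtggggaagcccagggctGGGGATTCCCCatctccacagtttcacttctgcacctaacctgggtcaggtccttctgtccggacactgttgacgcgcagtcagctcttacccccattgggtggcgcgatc
C3 (chr17:57228137-57228386, minus strand): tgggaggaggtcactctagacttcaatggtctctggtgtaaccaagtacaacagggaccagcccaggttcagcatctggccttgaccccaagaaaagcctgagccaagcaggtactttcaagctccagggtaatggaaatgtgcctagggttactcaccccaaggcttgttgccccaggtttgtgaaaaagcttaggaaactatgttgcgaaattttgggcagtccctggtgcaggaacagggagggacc
Kcnj10 (chr1:172340960-172341209, plus strand): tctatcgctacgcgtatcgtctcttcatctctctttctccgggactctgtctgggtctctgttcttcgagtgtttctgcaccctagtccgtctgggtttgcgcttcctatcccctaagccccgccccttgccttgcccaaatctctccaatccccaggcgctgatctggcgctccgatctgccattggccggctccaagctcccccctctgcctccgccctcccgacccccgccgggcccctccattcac
Aldh1a1 (chr19:20492333-20492582, plus strand): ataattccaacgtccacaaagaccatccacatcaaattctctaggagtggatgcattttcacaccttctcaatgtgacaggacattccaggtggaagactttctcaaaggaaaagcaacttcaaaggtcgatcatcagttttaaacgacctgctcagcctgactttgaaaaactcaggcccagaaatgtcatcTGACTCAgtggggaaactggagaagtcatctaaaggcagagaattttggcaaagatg
NF-kB matches were found 3 times in Tnip1, where they lie on both strands over the same bases, 2 times each in Tlr2, Casp4, Cxcl10 and H2-K1, and 1 time in Nfkbia. Cxcl10 also held 1 AP-1 match, and Aldh1a1 held 1 AP-1 match and none for NF-kB. C3 and Kcnj10 held neither. These 9 are not typical of the called promoters, since 10% of the higher promoters held an NF-kB match, and Acot7, Dhrs4, Hes5, Hs3st3a1, Znrf1, Lcn2 and Timp1, which were also higher, held none.

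The libraries of 72 h TNF held from 11337790 to 18353733 reads in peaks, those of 1 week from 9640256 to 25165008 and those of 72 h from 12239620 to 13137103. Replicate 3 of 1 week was the shallowest library. Values below are the deposited normalised read counts, that is, reads scaled by 1 size factor for each library. Differences are given as the difference in log2(value + 1), always 72 h TNF minus 1 week unless stated, with its standard error, and a peak is called at an adjusted p under 0.05 in a limma-trend fit of all 19 libraries. Since whole cultures were assayed, fewer cells of a type and less open chromatin per cell cannot be told apart. A promoter of 25 of the 30 genes on the mature astrocyte list had a peak in the table, among them Slc1a3, Kcnj10, Glul, Aldh1l1 and Gfap. Slc1a2, Aqp4, Gjb6, Slc14a1 and Slc7a10 had no peak that close to their start. Of 13 microglia markers 5 had a promoter peak, with Aif1, Cx3cr1, Csf1r, Itgam, Ptprc and Trem2 among those that had none. Promoter peaks lay at 9 of 12 neuron markers, without Dcx and Rbfox3, at 7 of 12 oligodendrocyte markers, without Sox10, Mbp and Mog, and at 4 of 11 endothelial and mural markers, without Pecam1 and Cldn5.

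The 2 groups of cells differed over a large part of the accessible genome. At 72 h TNF, 15553 of 88919 peaks (17.5%) were more open and 19826 (22.3%) were less open than at 1 week, and 42550 peaks had an unadjusted p under 0.05. The higher peaks were 44% of the calls, and 73.6% (25957 higher, 9289 lower) when libraries were scaled by total reads in peaks. At 40386 peaks (45.4%) the 3 libraries of 72 h TNF all lay above or all below the 4 of 1 week. This was so at 13246 of the peaks called higher and at 18893 of those called lower. The peaks that were higher at 72 h TNF than at 1 week were weak ones with large differences. Their median value was 74.2 at 72 h TNF against 35.8 at 1 week, their median difference was 0.98 in log2, and 7502 of them (48.2%) differed more than 2-fold and 801 (5.15%) more than 4-fold. Peaks that were lower were strong ones with smaller differences, with a median value of 240.0 against 380.3, a median difference of -0.63, and 4636 of them (23.4%) beyond 2-fold. Weak peaks need larger differences to be called, so height and size of difference are tied among the calls.

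Promoters moved differently from the rest of the genome. Among 13518 peaks within 1 kb of a gene start, 893 (6.61%) were higher at 72 h TNF and 6228 (46.1%) were lower, with a median difference of -0.29. Among the 75401 other peaks, 14660 (19.4%) were higher and 13598 (18%) lower, with a median of 0.04. The shares hardly changed beyond the promoter. From 1 to 10 kb 17.9% were higher and 18% lower, and beyond 200 kb 20% were higher and 19% lower.

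**Figure D1:**
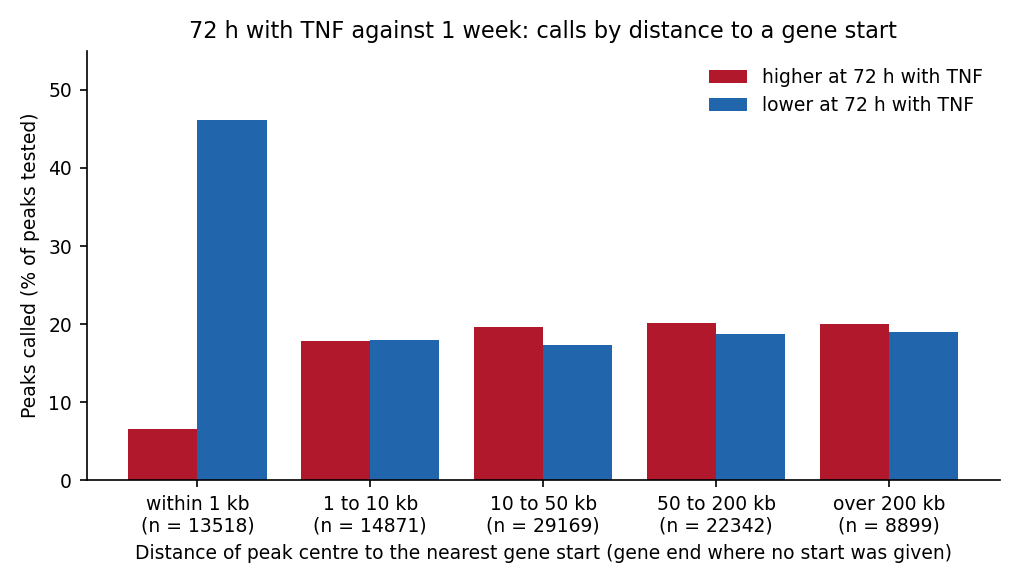
Bars give the percentage of tested peaks called higher (red) or lower (blue) at 72 h TNF than at 1 week, on the vertical axis, in 5 classes of distance from the peak centre to the nearest gene start on the horizontal axis, with the number of peaks under each. Within 1 kb 46.1% of peaks were lower and 6.61% higher, while in each of the other 4 classes both shares lay between 17.3% and 20.1%, with the deposited scaling.

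The deficit at promoters was a shift of their median and depended on how the libraries were scaled. A promoter offset was taken for each library as its mean log2 value at promoter peaks minus that at other peaks. It was 1.87 ± 0.06 (SD, n = 3) at 72 h TNF, 1.76 ± 0.05 (n = 3) at 72 h and 2.14 ± 0.01 (n = 4) at 1 week. No library of 72 h TNF, of which the highest was at 1.94, reached the 1 week libraries, which began at 2.13. The difference of -0.27 had a two-sided exact permutation p of 0.0571, the smallest that 3 against 4 libraries can give. After a loess correction, which removes any trend of the differences with peak height, the direction was the opposite. The offset was then 1.97 at 72 h TNF, with the lowest library at 1.949, against 1.93 at 1 week, with the highest at 1.946, and the difference of 0.035 had the same exact permutation p of 0.0571. With that correction 1024 promoter peaks were lower and 1256 were higher. With scaling by total reads in peaks, which moved the median of all peaks to 0.23, 2007 promoter peaks were higher and 1978 lower. Differences of single promoters are therefore given below beside this common shift of -0.29.

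The peaks with the smallest p-values among those more open at 72 h TNF lay mostly outside promoters and in or near genes of varied function. The first was in Ngfr, which encodes the p75 neurotrophin receptor, a member of the TNF receptor superfamily, 12454 bases from its start (chr11:95574994-95575494). Its values were 305, 303 and 314 in the libraries of 72 h TNF, 104, 64.6 and 82.8 at 72 h and 31.7, 30.4, 28.6 and 38.6 at 1 week. The TNF libraries were all far above the other groups, and the difference was 3.22 ± 0.16 (adjusted p = 1.1e-13). A peak 38822 bases from the start of Adamts20 (chr15:94442922-94443422), a secreted metalloprotease, stood at 579 ± 23.4 (SD, n = 3) at 72 h TNF against 50.0 ± 11.3 (n = 4) at 1 week and 53.1 ± 11.2 (n = 3) at 72 h. Of the 10 peaks it had the smallest difference between 72 h and 1 week without TNF, 0.10 (adjusted p = 0.72). A peak inside Sgce, encoding epsilon-sarcoglycan, had the same order, at 669 ± 23.5 against 91.0 ± 24.7 at 1 week and 95.6 ± 3.49 at 72 h. The peaks named for Mast4 (a kinase, 3.31), Itga1 (an integrin subunit, but 312339 bases away, 3.47), Slc46a1 (a folate transporter, 3.19), Slc22a22 (2.11), Phlda3 (an inhibitor of Akt, 2.52) and Klhl42 (2.77) were also higher in every library of 72 h TNF than in any of 1 week. Grm4, which encodes a metabotropic glutamate receptor, was the exception among the 10. Its peak, 15316 bases from the gene (chr17:27406821-27407321), stood at 549.8, 641 and 669 with TNF, at 575, 593 and 582 without TNF at 72 h and at 154, 200.3, 185 and 192 at 1 week. Here both groups of 72 h lay together above 1 week. In 9 of the 10 peaks the TNF step was called higher and in 5 the time step, against 6.24% and 16.2% of all peaks. These 10 were chosen by the sum of the 2 steps, so their shares exceed those of all peaks in part by that choice.

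The 10 leading peaks that were less open at 72 h TNF were lower in both steps. The smallest p-value belonged to a peak 1921 bases from Ucma (chr2:4987419-4987919), a gene for a secreted matrix protein, with values of 325, 318 and 316 at 72 h TNF and 1608, 1545, 1569 and 1567 at 1 week. The untreated cells of 72 h, at 552, 589 and 561, lay between the groups and overlapped neither, and the difference was -2.29 ± 0.11 (adjusted p = 8.1e-14). A peak near Slbp, which encodes the protein that binds the stem loop of histone mRNAs, was at 21.0 ± 4.42 against 284 ± 24.8 (-3.71), and one inside Smim5 at 48.4 ± 3.09 against 611 ± 51.5 (-3.63). Others were named for Mtch2, a mitochondrial outer membrane protein (-3.32), Nuak1, a kinase of the AMPK family (-2.93), Arpin, an inhibitor of the Arp2/3 complex (-2.89), Arhgef10l (-2.33), Trim29 (-2.16), Hs1bp3 (-2.08) and Fam20b (-1.80). At all 10 of these peaks both steps, 72 h TNF minus 72 h and 72 h minus 1 week, were called lower, against 5.55% and 22.5% of all peaks. The 10 were chosen by the sum of these 2 steps, which favours peaks where both go the same way. By group means, chromatin at these 10 sites was most open in untreated cells of 1 week. It was less open in untreated cells of 72 h and least open in cells of 72 h with TNF.

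Of the 10 leading promoters that were more open at 72 h TNF, 4 belong to genes of innate immunity and 6 to genes of other kinds. Tnip1, whose product binds A20 and restrains NF-kB, had values of 131, 140.4 and 143 in its promoter peak (chr11:54962726-54963226) at 72 h TNF, 19.3, 20.3 and 19.1 at 72 h and 6.17, 7.79, 4.40 and 7.51 at 1 week. The peak was close to empty at 1 week, where it rested on 2 to 10 reads a library against 95 to 147 at 72 h TNF, and the difference of 4.25 ± 0.40 (adjusted p = 7.6e-09) is the largest among the promoters named here. C3, the central component of complement, was at 259, 234 and 226 with TNF against 28.2, 28.8, 28.6 and 19.3 at 1 week and 45.0, 49.0 and 48.4 at 72 h (3.16 ± 0.33, adjusted p = 4.3e-08). All TNF libraries were far above the others. Casp4, an inflammatory caspase that senses lipopolysaccharide in the cytosol, was at 82.3, 75.4 and 72.0 against 9.70, 7.01, 6.6 and 2.14 (3.52), the latter again on 2 to 11 reads a library. Tlr2, a receptor for bacterial lipoproteins, was at 341 ± 52.5 against 84.6 ± 20.7 (2.02).

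The other 6 promoters differed in which step was the larger. Acot7, an acyl-CoA thioesterase, was at 449, 466 and 499 at 72 h TNF, 169.9, 177 and 182 at 72 h and 118, 108, 108 and 127 at 1 week, which gave 2.02 ± 0.14 (adjusted p = 1.4e-11), the smallest p of any promoter that was higher. Foxs1, a forkhead transcription factor, was at 206 ± 21.1 against 40.7 ± 4.68 (2.31), and Znrf1, a ubiquitin ligase, at 345 ± 59.0 against 97.5 ± 29.4 (1.84). In these 3 the TNF step was the larger, at 1.41, 1.84 and 2.01. The promoter of Dhrs4, a carbonyl reductase, was instead at 354 ± 24.6 at 72 h without TNF and 349 ± 9.98 with it, and lower at 1 week (127 ± 19.3). Hes5, a repressor induced by Notch in neural stem cells, stood at 218, 299 and 295 with TNF, 176, 221 and 195 without it and 86.4, 74.0, 90.2 and 121 at 1 week. Its difference of 1.54 ± 0.15 (adjusted p = 1e-08) lay mostly in the time step (1.10, adjusted p = 2.8e-06), while the TNF step was 0.44 (adjusted p = 0.069). In NSPs the same peak was at 1976. Hs3st3a1, a heparan sulfate sulfotransferase, was at 538 ± 12.6 against 242 ± 12.4, with 72 h at 422 ± 28.9.

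Promoters that were less open at 72 h TNF included genes of amino acid and retinoid metabolism. Aldh1a1, which makes retinoic acid from retinaldehyde, was at 148, 117 and 121 with TNF, 333, 331 and 261 at 72 h and 362, 338, 352 and 437 at 1 week. Cells with TNF stood apart from both untreated groups, and the difference was -1.53 ± 0.17 (adjusted p = 8.1e-08). Slc6a9, the glycine transporter of glia, was at 286 ± 27.9 against 669 ± 67 (-1.22), Lgi3, a secreted neural protein, at 208 ± 22.3 against 526 ± 39.1 (-1.34) and C1qtnf3, a secreted protein with a C1q domain, at 123.6 ± 11.2 against 350.3 ± 33.0 (-1.49). In these 4 and in Zfp593 (-1.08) the TNF step was the larger one. In the other 5 it was the time step. Cdo1, the cysteine dioxygenase that opens taurine synthesis, was at 50.1, 42.9 and 85.2 with TNF, 87.5, 77.8 and 105 at 72 h and 260.1, 263, 295 and 240.2 at 1 week, so that both groups of 72 h lay far below 1 week (-2.20 ± 0.18, adjusted p = 5.2e-10). Slc38a7, a glutamine transporter, stood at 865 ± 45.0 at 72 h TNF, 840.3 ± 32.8 at 72 h and 1993 ± 142 at 1 week (-1.20). Ctnnal1 (-1.02), Apc2 (-0.90) and Mgme1, a mitochondrial nuclease whose peak also lies in Snx5 (-0.92), had differences of the same kind. All 10 go beyond the common promoter shift of -0.29. The peak of C1qtnf3 lay 598 bases from the start of the gene, and another, 338 bases from it, was not called. That of Apc2 lay 851 bases from a start, and one 193 bases from another start was not called.

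**Figure D2:**
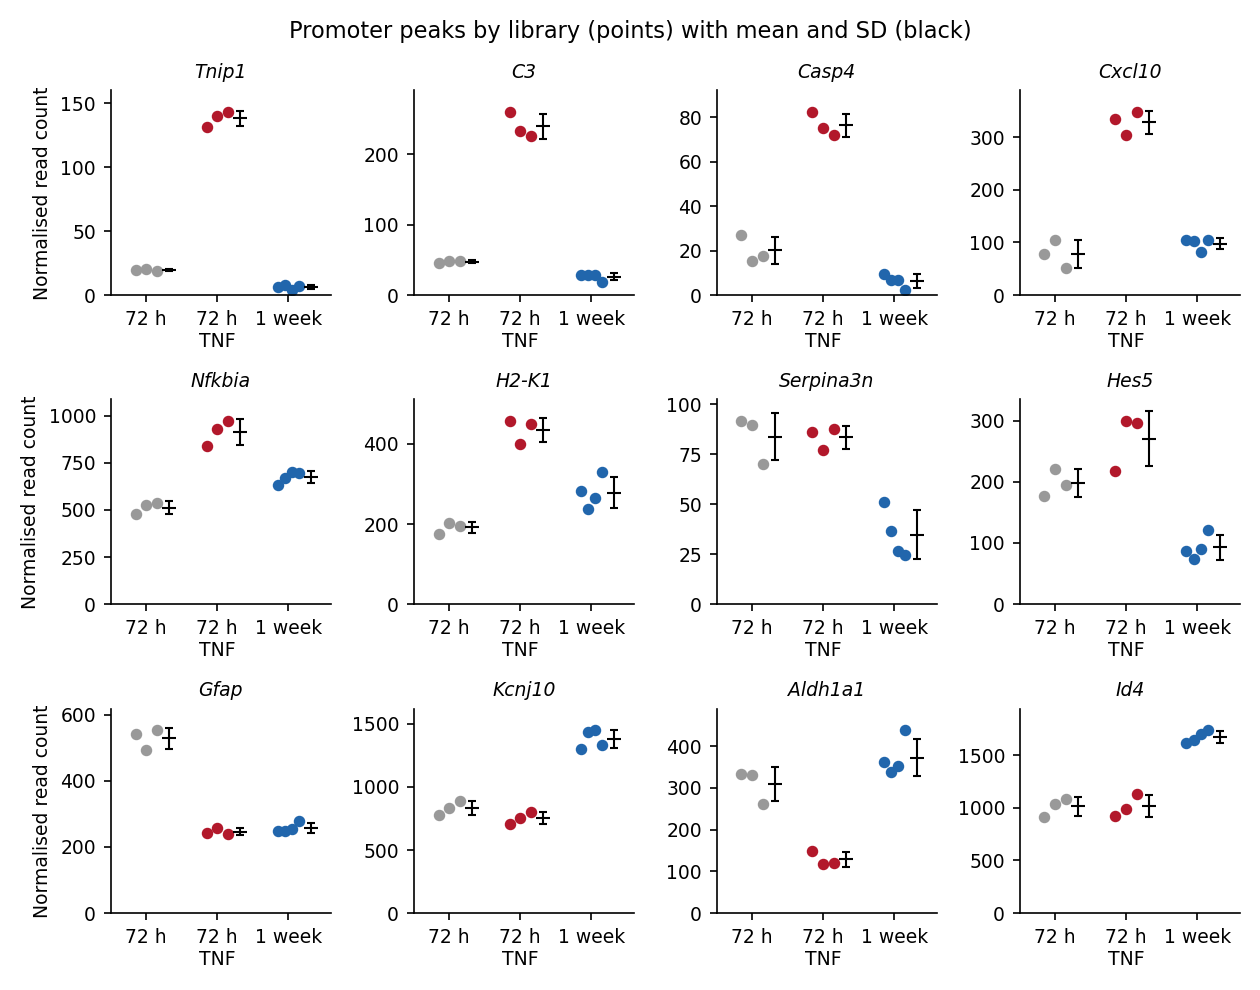
Normalised read counts (vertical axes, from 0) at 12 promoter peaks in each library of 72 h (grey), 72 h TNF (red) and 1 week (blue), with the mean and SD of each group in black beside the points. The 3 TNF libraries stand above both untreated groups at Tnip1, C3, Casp4, Cxcl10, Nfkbia and H2-K1 and below both at Aldh1a1, both groups of 72 h stand above 1 week at Serpina3n and Hes5 and below it at Kcnj10 and Id4, and at Gfap TNF and 1 week overlap, with means of 246 and 258 while 72 h is at 529.

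To place TNF and time in the difference, the 2 steps were computed from the same fit. They share the 72 h libraries with opposite sign, so they are given side by side and not tested against each other. Over the 15553 peaks that were higher, the median difference of 0.98 went with a median of 0.29 for 72 h TNF minus 72 h and 0.68 for 72 h minus 1 week, and at 65.5% of them the time step was the larger, close to the 63.6% of all peaks. Over the 19826 lower peaks the median of -0.63 went with -0.06 and -0.56, and the time step was the larger at 74.2%. At lower promoters the median was -0.46, with 0.13 for TNF and -0.58 for time, the time step was the larger at 97.1%, against 83.5% of all promoter peaks, and at 82% the TNF step was positive. Over all promoter peaks the TNF step was positive at 76.5%, or at 62.2% after loess correction. At lower peaks outside promoters both steps were negative in the median, -0.26 for TNF and -0.54 for time. Among the named peaks the TNF step was the larger at 9 of the 10 higher peaks, 7 of the 10 higher promoters, 7 of the 10 lower peaks and 5 of the 10 lower promoters.

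**Figure D3:**
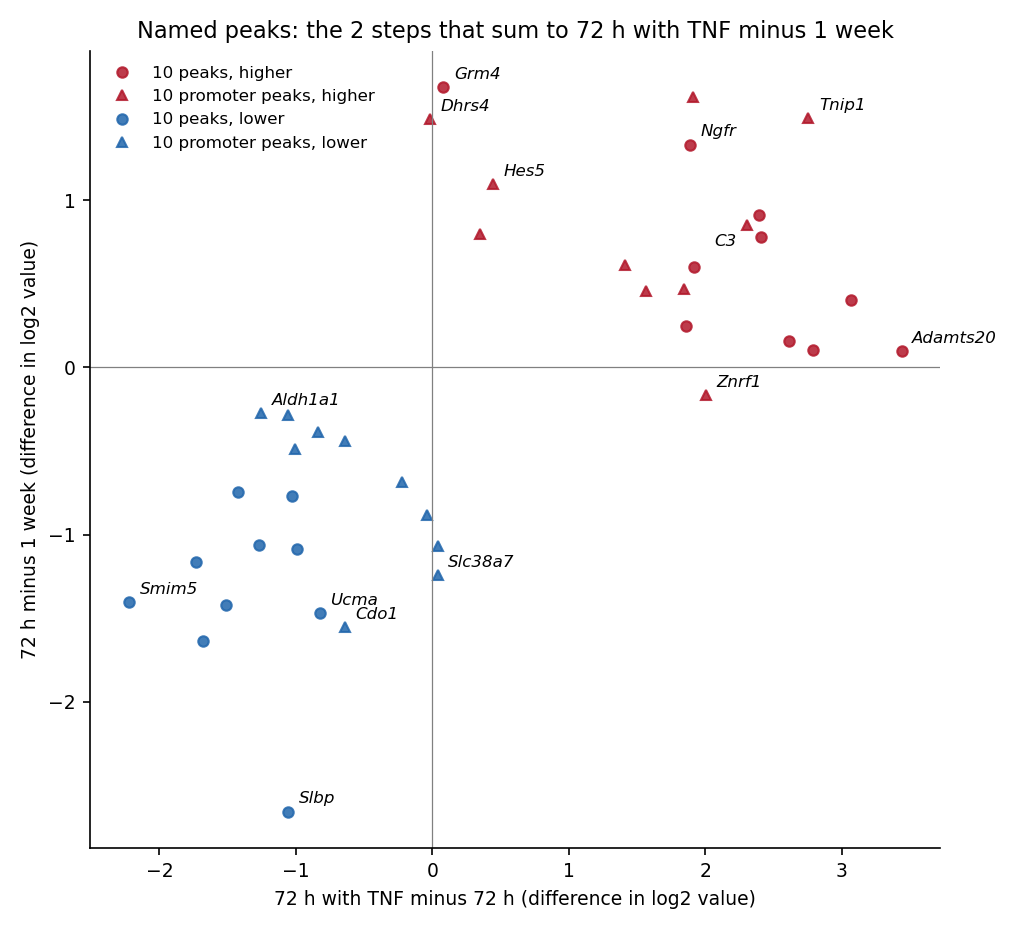
Each point is 1 of 40 named peaks, placed by its difference in log2 value between 72 h TNF and 72 h (horizontal axis) and between 72 h and 1 week (vertical axis), which add up to the difference between 72 h TNF and 1 week. Circles are the 10 peaks with the smallest p in each direction and triangles the 10 promoter peaks. Adamts20 and Znrf1 lie along the TNF axis, Grm4, Dhrs4 and Slc38a7 along the time axis, and the 10 blue circles are below 0 on both axes.

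Across all peaks the 72 h TNF cells were nearer to untreated cells of 72 h than to those of 1 week. The root mean square difference of group means over the tested peaks was 0.507 in log2 between 72 h TNF and 72 h, 0.656 between 72 h TNF and 24 h TNF, and 0.712 between 72 h TNF and 1 week. Untreated cells of 72 h were at 0.654 from 1 week and those of 24 h at 0.996. These distances hold the noise of the libraries as well and were not tested.

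TNF at 24 h was measured in 6 other libraries, so that it bears on these peaks without shared libraries. Over all peaks 6274 (7.06%) were higher and 3136 (3.53%) lower at 24 h with TNF than at 24 h without it. At the peaks that were higher at 72 h TNF than at 1 week, 22% were higher with TNF already at 24 h and 0.566% lower, with a median of 0.25 and 68.3% of differences above 0. At the peaks that were lower, 1.72% were higher and 9.12% lower, with a median of -0.10. The same order was seen with scaling by total reads (16.8% and 0.963% at higher peaks, 1.51% and 14% at lower peaks) and after loess correction (25.5% and 0.978%, 1.65% and 12.8%). Among the named peaks TNF at 24 h was called in the same direction at 9 of the 10 higher peaks, 7 of the 10 higher promoters, 8 of the 10 lower peaks and 4 of the 10 lower promoters. At 24 h the peak in Adamts20 was at 493 with TNF and 55 without, and that in Sgce at 1013 and 152.

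**Figure D4:**
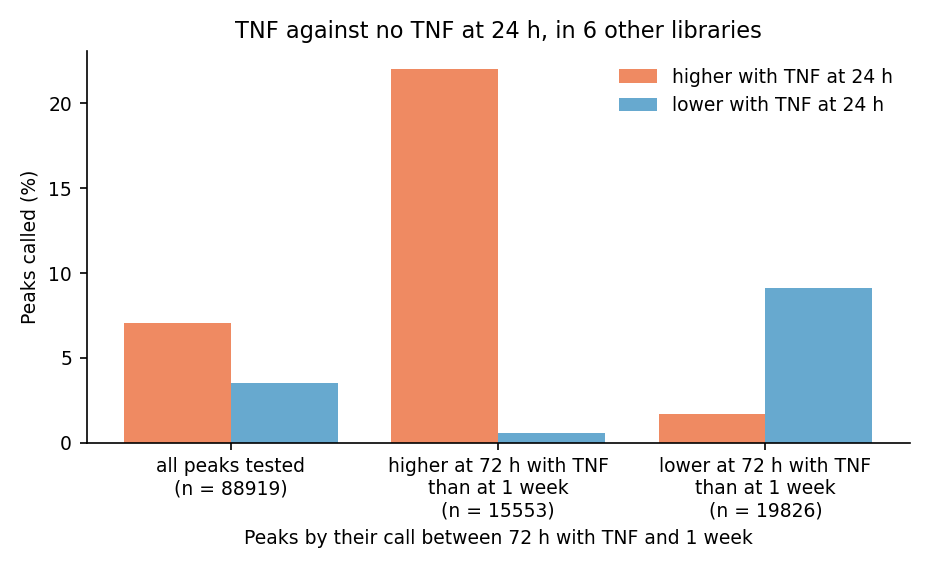
Bars give the percentage of peaks called higher (orange) or lower (light blue) with TNF at 24 h, in 6 libraries outside the comparison, for all tested peaks and for peaks called higher or lower at 72 h TNF than at 1 week (horizontal axis). The share higher with TNF at 24 h was 7.06% of all peaks, 22% of the higher and 1.72% of the lower peaks, and the share lower was 3.53%, 0.566% and 9.12%.

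Whether TNF moved the peaks that change during normal maturation was asked with the untreated change from 24 h to 1 week, which shares no library with TNF at 72 h. TNF at 72 h gave 5551 higher peaks (6.24%) and 4932 lower (5.55%) of all. Of the 26567 peaks that opened between 24 h and 1 week, 9.28% were more open at 72 h TNF than at 72 h and 4.55% less open, with a median of 0.10. Of the 23909 that closed, 3.63% were more open and 6.64% less open, with a median of -0.09. With total reads the medians were 0.03 and -0.14, and after loess correction 0.05 and -0.05. Over all peaks the calls with TNF thus leaned to the side of the untreated change, by a small median. Of all promoters 3.14% were more open with TNF and 0.932% less open, with a median of 0.13. At the 1789 promoters that closed, 71 (3.97%) were more open and 34 (1.9%) less open, with a median of 0.08 and 58.5% of differences above 0. At the 6320 that opened, 183 (2.9%) were more open and 28 (0.443%) less open, with a median of 0.13. With total reads the medians were 0.04 at promoters that closed, 0.05 at those that opened and 0.05 at all. After loess correction they were 0.06, 0.02 and 0.04, so the order of promoters that closed and opened depended on the scaling.

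Reactive astrocyte genes had the largest share of higher promoters among the 14 lists with at least 10 of them. Of 20 genes with a promoter peak 9 were higher at 72 h TNF (45%, against 6.61% of all promoters) and none was lower (against 46.1%), with a median of 0.36 against -0.29, and each other scaling gave 9 to 12 higher and none lower. Lcn2, which encodes the iron-binding acute phase protein lipocalin-2, was at 105, 79.8 and 106 with TNF and 12.3, 9.35, 22.0 and 26.8 at 1 week (2.49 ± 0.39, adjusted p = 1.7e-05). Steap4, a metalloreductase, was at 93.9, 106 and 120.0 against 22.0, 13.2, 22.0 and 18.2 (2.46 ± 0.27, adjusted p = 9e-08). In both the groups did not overlap, and the untreated cells of 72 h, at 32.9 ± 5.63 and 36.1 ± 8.16, were between them. Cxcl10, a chemokine for T cells, was at 334, 304 and 347 against 104, 102, 81.4 and 104, with 72 h at 78.5, 104 and 51.0. Its peak (chr5:92348735-92349235) also lies inside the gene Art3. The untreated groups did not differ by the test (adjusted p = 0.15), and the difference of 1.74 ± 0.21 (adjusted p = 2.8e-07) lay in the TNF step (2.12).

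In other members the time step was the larger. Serpina3n, a serine protease inhibitor, was at 85.8, 76.9 and 87.6 with TNF, 91.4, 89.7 and 70.1 at 72 h and 51.1, 36.6, 26.4 and 24.7 at 1 week, so that both groups of 72 h lay above 1 week. Serping1, the inhibitor of complement C1, was at 114 ± 5.25, 94.3 ± 3.08 and 45.3 ± 7.15 in the same order. For Timp1, an inhibitor of metalloproteases whose peak also lies inside Syn1, the values were 36.7, 53.2 and 58.8 with TNF, 24.4, 47.8 and 31.9 at 72 h and 2.65, 14.0, 17.6 and 15 at 1 week, on 3 to 18 reads a library at 1 week. In these 3 the time step was called and the TNF step was not. Gbp2, a GTPase induced by interferon (0.55), and Emp1, a membrane protein (0.40), had small differences. The remaining 11, among them Vim (-0.25), Cd44 (0.04), Osmr (0.33), Sbno2 (-0.13) and Cd109 (-0.07), were not called. Within 50 kb of the genes of the list 32 of 96 peaks (33.3%) were higher and 7 (7.29%) lower, against 17.5% and 22.3% of all peaks. Sbno2 had 7 of 11 peaks higher and none lower though its promoter was not called, and Serpina3n had 4 of 7.

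The calls at promoters of the NF-kB pathway depended on the scaling. Of 22 promoters 3 were higher and 5 lower (13.6% and 22.7%, against 6.61% and 46.1% of all promoters), and with loess correction or total reads 9 were higher and none lower. The 3 were Tnip1, Nfkbia, which encodes the inhibitor IkB-alpha, and Nfkbiz, which encodes a nuclear IkB protein. Nfkbia was at 837, 929.7 and 969.7 with TNF, 476, 524 and 538 at 72 h and 635, 670.2, 699.8 and 696 at 1 week (0.43 ± 0.10, adjusted p = 0.0011). Nfkbiz was at 761 ± 21.0, 411 ± 43.6 and 545 ± 41.9 (0.48). At both the libraries of 72 h without TNF were the lowest, and those of 1 week lay between without overlap. The subunits Nfkb1 (-0.01), Nfkb2 (0.27), Rela (-0.19), Relb (-0.16) and Rel (-0.25) were not called. Lower were Nfkbib (-0.41), Birc2 (-0.44), Traf2 (-0.27), Map3k14 (-0.45) and the deubiquitinase Cyld (-0.48), whose difference was 0.010 after loess correction. In the TNF step alone 9 of the 22 were higher and none lower, against 3.14% and 0.932% of all promoters. In the loci, promoters included, 33 of 112 peaks (29.5%) were higher and 22 (19.6%) lower, against 17.5% and 22.3% of all peaks. Of these 4 of 5 peaks of Traf2 were higher, by up to 3.60, as were 6 of 12 of Nfkbia and 3 of 4 of Bcl3.

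Of 12 promoters of chemokines and cytokines 3 were higher and 3 lower (25% each, against 6.61% and 46.1% of all promoters). With total reads 6 were higher and 2 lower. The higher ones were Cxcl10, Cxcl16 (1.01) and Tnfsf9, a ligand of the TNF superfamily (0.97), and the lower ones were Ccl2 (-0.42), Ccl7 (-0.53) and Cx3cl1 (-0.66). Around Ccl2, the monocyte chemokine, 5 of 6 peaks were nevertheless higher, by up to 2.79, and only the promoter was lower. Both peaks of Ccl5 were higher, by up to 2.41. Over all loci of this list 25 of 70 peaks (35.7%) were higher, against 17.5% of all peaks, and 17 (24.3%) lower, near the 22.3% of all peaks.

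Of 20 promoters of interferon response and antigen presentation, counted by gene on 19 separate peaks, 4 were higher and 2 lower (20% and 10%, against 6.61% and 46.1% of all promoters). After loess correction 7 were higher and 1 lower. H2-K1, which encodes a heavy chain of MHC class I, was at 456, 399 and 449 with TNF, 176, 203 and 195 at 72 h and 283, 237, 264 and 330.3 at 1 week (0.65 ± 0.14, adjusted p = 0.00055), with no overlap between the groups. H2-D1 (0.49), Gbp3 (0.50) and Ifit1, an interferon-induced RNA-binding protein (0.79), were also higher. These genes belong to families with similar copies, so reads may be shared between copies. Stat2 (-0.69), whose peak also lies in Apof, and Irf2 (-0.46, not called after loess correction) were lower. In this list 13 of 20 promoters were lower at 72 h than at 1 week (65%, against 57% of all promoters), and 6 were higher at 72 h TNF than at 72 h (30%, against 3.14%).

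AP-1 and immediate early genes had 1 of 17 promoters higher and 7 lower (41.2%, near the 46.1% of all promoters), and after loess correction 5 higher and 1 lower. The higher one was Ier3, an early response gene that protects from cell death, at 89.4, 97.6 and 94.8 against 17.6, 19.5, 13.2 and 6.43 (2.74), with 72 h at 54.0, 61.0 and 43.3. Fosb (-0.50), Jun (-0.51), Mafk (-0.68) and Egr1 (-0.41, but 0.082 after loess correction) were among the lower. In their loci 29 of 90 peaks (32.2%) were higher and 17 (18.9%) lower, against 17.5% and 22.3% of all peaks, with 3 of 4 of Junb and 5 of 8 of Batf3 higher.

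Mature astrocyte genes had 11 of 25 promoters lower at 72 h TNF and none higher. The share of 44% lower is close to the 46.1% of all promoters and the median of -0.33 close to their -0.29, and with loess correction or total reads 3 and 2 were lower. The single steps were less alike. In the TNF step 5 of the 25 were lower and none higher, against 0.932% and 3.14% of all promoters. These were Gfap, Aldoc, S100b, Ndrg2 and Sparcl1. In the time step 10 were lower and 4 higher, against 57% and 5.18% of all promoters. A few members went well beyond the common shift. Kcnj10, the potassium channel Kir4.1, was at 706, 752 and 801 with TNF, 775, 833 and 888 at 72 h and 1298, 1438, 1448 and 1335 at 1 week (-0.87 ± 0.10, adjusted p = 1.3e-07). Both groups of 72 h were below 1 week, and 5 of the 7 peaks of its locus were lower with none higher. Sparcl1, a secreted matrix protein of astrocytes, was at 32.2, 32.5 and 36.0 against 102, 101, 77.0 and 63.3 (-1.30 ± 0.27, adjusted p = 0.00033). Aldh1l1, a folate enzyme widely used as an astrocyte marker, was at 27.7, 39.9 and 25.2 against 58.2, 39.7, 112 and 62.2 (-1.04 ± 0.34, adjusted p = 0.017). Here the groups overlap and 1 library of 1 week, replicate 3, is far above the rest. Clu (-0.51), Cst3 (-0.45) and Gpld1 (-0.50) were lower by somewhat more than the common shift and were not called after loess correction. Slc1a3, the glutamate transporter GLAST (-0.37), and Glul, glutamine synthetase (-0.32), were lower by about that shift.

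Gfap, the intermediate filament of astrocytes, did not differ by the test, with values of 243, 257 and 239 at 72 h TNF and 248, 249, 255 and 279.9 at 1 week (-0.06 ± 0.21, adjusted p = 0.83). Untreated cells of 72 h were at 542, 493 and 552, above every library of both groups. The TNF step was -1.10 (adjusted p = 0.0011) and the time step 1.03 (adjusted p = 0.00026), so 2 differences of like size and opposite sign met. Gja1, which encodes the gap junction protein connexin 43, was at 183 ± 8.49 against 148 ± 19.4 (0.31, adjusted p = 0.19).

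Gliogenic transcription factors were divided. Of 19 promoters 2 were higher and 5 lower (10.5% and 26.3%, against 6.61% and 46.1% of all promoters). The higher ones were Hes5 and the BMP target Id1 (714 ± 76.2 against 506 ± 40.9, 0.50). Id4, another inhibitor of differentiation, was at 1013 ± 104 with TNF, 1012 ± 90.1 at 72 h and 1672 ± 55.2 at 1 week (-0.73). Stat3, the mediator of astrocyte induction by cytokines, was at 2326 ± 299 against 3375 ± 156 (-0.54), but its difference was 0.031 after loess correction, where Id4 was not called either. With that correction 5 promoters of the list were higher and none lower. Hes5 had all 5 peaks of its locus higher, by 0.83 to 1.82, and Id1 had 4 of 5. Over all loci of the list 57 of 313 peaks (18.2%) were higher and 64 (20.4%) lower, near the 17.5% and 22.3% of all peaks. For the NFI genes, which start the glial programme, as for all list genes, only the promoter peak closest to a start was counted. None of these peaks was called, with differences of 0.17 at Nfia, -0.18 at Nfib and -0.05 at Nfix. Around Nfib 10 of 28 peaks were lower and 2 higher, around Nfix 8 of 22 and 2, and around Nfia 15 of 62 and 10, with a median of 0.03.

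Neural stem cell genes had 3 of 13 promoters higher and 3 lower (23.1% each, against 6.61% and 46.1% of all promoters). After loess correction 4 were higher and 1 lower. Hmga2, a chromatin protein of young stem cells, was at 119, 124.2 and 166 with TNF, 82.4, 116 and 109.6 at 72 h and 63.5, 58.4, 55 and 63.3 at 1 week (1.16 ± 0.18, adjusted p = 1.8e-05). Vcam1, an adhesion molecule of stem cells that is also induced by TNF in endothelium (0.80), and the Notch ligand Dll1 (0.55) were higher as well. In these 3 the groups did not overlap and untreated cells of 72 h had means between them. Nes, the intermediate filament nestin, was lower (322 ± 36.6 against 471 ± 19.8, -0.55), as were 5 of the 6 peaks of its locus.

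In the other lists lower promoters outnumbered higher ones, as they did over all promoters. Lower were 11 of 20 proliferation genes (55%), 10 of 15 NRF2 targets (66.7%), 11 of 22 contractile and matrix genes (50%), 10 of 24 genes of lipid transport and synthesis (41.7%) and 7 of 13 cilium genes (53.8%), against 46.1%. After loess correction 1, 2, 6, 2 and 0 of them were lower. With total reads it was 4, 4, 7, 5 and 4. Of these 5 lists the contractile group had the most lower promoters by number in both, and its largest difference was at Tagln, which encodes transgelin (30.4, 16.3 and 58.8 with TNF, 41.2, 21.5 and 34.4 at 72 h and 97.9, 81.8, 121 and 63.3 at 1 week, -1.49 ± 0.35, adjusted p = 0.0013). Myl9, a myosin light chain, was at 564 ± 24.5, 460.0 ± 31.1 and 1002 ± 88.7 (-0.82), and Tpm1, tropomyosin, at 211 ± 4.10, 159 ± 14.7 and 377 ± 44.1 (-0.83). Both groups of 72 h were below 1 week. Of the 22 genes of the list, on 21 separate peaks, 17 were lower at 72 h than at 1 week (77.3%, against 57% of all promoters) and none higher (against 5.18%). Itga5, the fibronectin receptor subunit, was the 1 member that was higher (0.53), with 6 of the 11 peaks of its locus higher and none lower. Of the proliferation genes Mcm2 (-0.65), Cdc20 (-0.56), Cdk1 (-0.50) and Mcm3 (-0.53) had the smallest p-values, of which Mcm2 was still called after loess correction. Of the lipid genes Hmgcs1 (-0.76) and Insig1 (-0.60), of cholesterol synthesis and its control, and Acsl6 (-0.89) were lower.

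**Figure D5:**
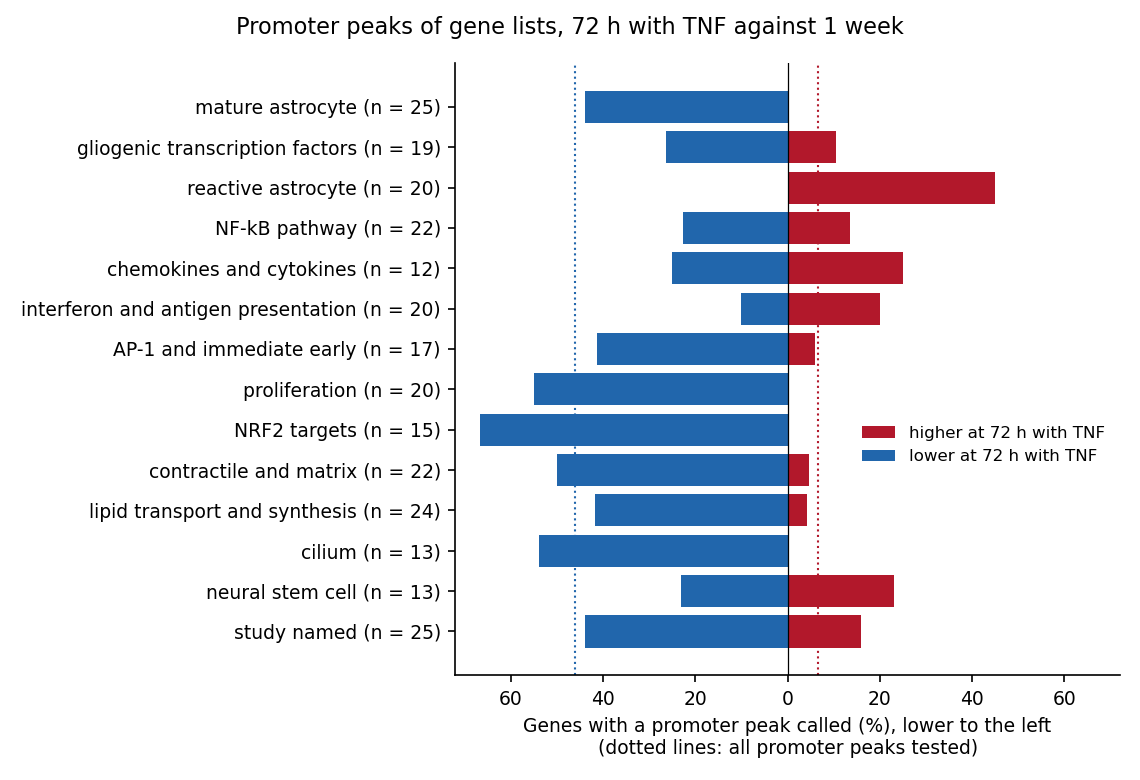
For 14 gene lists with at least 10 measured promoters, bars give the percentage of genes whose promoter peak was higher (red, to the right) or lower (blue, to the left) at 72 h TNF than at 1 week, with dotted lines at 6.61% and 46.1% for all promoter peaks, in the deposited scaling. The reactive astrocyte list has 45% higher and 0% lower. Most lower shares shrink after loess correction, where 9 NF-kB promoters are higher and none lower.

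Markers of other cell types were compared in the same way. The summed value of the microglia promoters was 1177 to 1217 at 72 h TNF and 1180 to 1396 at 1 week, that of neuron promoters 1986 to 2187 and 2053 to 2511, that of oligodendrocyte promoters 1848 to 2080 and 1723 to 1964, and that of endothelial and mural promoters 503 to 613 and 434 to 557. Those ranges overlap between the groups, though single promoters were called, among them Tmem119, a microglia gene (1.29), Gad1 (0.62), Gpr17 (1.24, on 1 to 13 reads a library at 1 week) and Flt1 (0.48) higher and Map2 (-0.27, 0.10 after loess correction) lower. The 3 fibroblast and meningeal promoters, Col1a1, Foxc1 and Tbx18, summed to 913 to 987 at 72 h TNF and 1261 to 1419 at 1 week, and the mature astrocyte promoters to 9825 to 10691 and 12628 to 13512. These sums are in the deposited scaling, where 6.61% of all promoters were higher and 46.1% lower, with a median of -0.29. With total reads 2 microglia, 4 neuron, 4 oligodendrocyte and 2 endothelial and mural promoters were higher and none lower. After loess correction 1, 2, 3 and 0 were higher, again with none lower. Of the fibroblast and meningeal promoters 2 were lower in the deposited scaling, 1 with total reads and 0 after loess correction. The part of these cell types in the results was not tested.

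Of 25 genes that the study named and that had a promoter peak, 4 were higher, namely Lcn2, Timp1, Cxcl10 and Nfkbia, and 11 lower. The shares were 16% and 44%, against 6.61% and 46.1% of all promoters, so the lower share was near that of promoters in general. Differences below stand beside the common promoter shift of -0.29. The study chose these genes on samples of this series, so the counts are not independent evidence. The glycogen genes Ugp2 (-0.41), Pygb (-0.37) and Ppp1r3c (-0.38) were lower, the last with a difference of 0.026 after loess correction. Mki67 (-0.43) and Ccnb1 (-0.41), of dividing cells, Smad3, a mediator of TGF-beta (-0.42, 0.036 after loess correction), Rxra (-0.50) and Myc (-0.39, 0.0014 after loess correction) were lower too. After that correction none of the 25 was lower and 5 were higher. Esr1 (-0.05), Rarg (-0.18) and Cebpb (-0.09) were not called. Around Smad3 9 of 19 peaks were nevertheless higher and 2 lower.

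Some genes held many called peaks. Counting peaks whose nearest gene lay within 50 kb, the most higher peaks were at Gse1, a chromatin regulator (21 of 60 higher, 8 lower), Rptor, the mTORC1 subunit raptor (19 of 33 higher, none lower), Nav2 (19 of 75, 11 lower), Arhgap26 (18 of 50, 5 lower) and Ptprt (17 of 43, 5 lower). Of these 5 Rptor alone had no lower peak, with a median difference of 0.62 over its 33 peaks. Its median steps were 0.14 for TNF and 0.58 for time. The most lower peaks were at Kazn (15 of 23 lower, 1 higher), Sdk2 (15 of 31, 4 higher), Tspan9 (15 of 32, 3 higher), Camta1 (15 of 36, 4 higher) and Nfia, the glial transcription factor (15 of 62, 10 higher). Kazn had a median difference of -0.87, with 0.06 for TNF and -0.73 for time. Long genes with many peaks have more chances to be listed here. Over all peaks 17.5% were higher and 22.3% lower. Nfia, with 16.1% higher and 24.2% lower, was near these shares, and Nav2 had 25.3% higher and 14.7% lower.

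The 250 bases before the start were searched for motifs at the 9844 of 13518 promoter peaks that matched a promoter sequence. The NF-kB consensus was in 10% of the 508 promoters that were higher at 72 h TNF, 3.46% of the 5000 lower, 5.74% of the 4336 not called and 4.18% of all 21262 promoters in the table. AP-1 letters (TGANTCA) were in 8.07%, 3.24%, 4.22% and 6.13% in the same order. By their letters the motifs cannot share a base. The median number of CpG dinucleotides in these bases was 10 for higher, 18 for lower and 14 for promoters not called, and the median GC content 58.8%, 61.6% and 60%. The higher promoters thus differed from the lower ones in base composition as well, and its part in the motif shares was not tested.

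Chromosomes X and 15 differed from the rest. On X 10.3% of 2085 peaks were higher and 25.9% lower, with a median of -0.17, and on chromosome 15 22.6% of 4127 were higher and 17.4% lower, with a median of 0.07. On every other autosome 41.3% to 48.6% of the calls were higher. After loess correction a median level was taken in each library, against that of the chromosomes other than 15, X and Y. For X it was -0.09 to -0.07 in the libraries of 72 h TNF and 0.05 to 0.12 in those of 1 week. For chromosome 15 it was 0.05 to 0.08 and -0.06 to -0.04. Neither range overlapped between the groups, and untreated cells of 72 h, at -0.13 to -0.09 for X and 0.056 to 0.064 for chromosome 15, were on the side of the TNF cells. Without X and Y 15341 peaks were higher and 19290 lower.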

How the data were processed

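Per the labels and the methods, the authors cleaned reads with Trim Galore, mapped them to mm10 with Bowtie2, removed mitochondrial reads and blacklisted regions with SAMtools and filters, called peaks with MACS2 and counted reads with DiffBind. Versions, duplicates and any shift for the transposase cut are not given in the sources used here, and a shift of a few bases is small against windows of 500 bases. The deposited signal was found to be reads over 1 size factor for each library, since 100% of values were whole multiples of 1 read (within 0.02 reads), and the lowest was 1 read.

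A count test was planned for raw counts alone, so log2(value + 1) was fitted with limma-trend (limma 3.58.1, R 4.3.3) over all 19 libraries, 1 mean a group, after filterByExpr (edgeR 4.0.16) at a minimum count of 10. Two-sided p-values were adjusted by Benjamini-Hochberg over 88919 peaks. The log scale understates differences of low peaks. On recovered reads edgeR's quasi-likelihood test called 17586 peaks higher and 16214 lower. The fit was tested on simulated data.

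Promoter peaks had their centre within 1 kb of a RefSeq (GRCm38.p6) start of a protein-coding gene (17491 genes) or, where no start was given, of either gene end (4405 genes). Exons and introns were not assigned. Positions are as deposited, whether counted from 0 or 1 is not stated. Named are the 10 peaks and the 10 promoters with the smallest p in each direction whose libraries do not overlap, the 4 members of each list with the smallest p, the genes the study named and 5 loci in each direction with the most calls. Other members were named after their values were seen, and a few are not reported here. Members and lists were chosen with earlier results of these data known. Alternatives covered scaling, tool, filter, pseudocount, libraries fitted, replicate block, sex chromosomes and leaving out each library.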

Additional observations from a re-analysis of the deposited data

Results flagged for a closer look

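At 9 of 126 values tested (125 peaks and the promoter offset), 1 of the 4 libraries of 1 week stood apart from the other 3 by Dixon's criterion, which chance gives at about 1 in 20. Replicate 3, the shallowest, was the one at Arhgef10l (744 against 600.4 to 623), Arpin (1565 against 1065 to 1129), Hmgcs1 (3924 against 3141 to 3241), Snap25 (349.9 against 260.1 to 267) and Cxcl10 (81.4 against 102 to 104). Replicate 4 stood apart at Slc46a1 (69.7 against 39.7 to 41.8) and C3 (19.3 against 28.2 to 28.8), and replicate 1 at Slc22a22 (100.5 against 105.1 to 105.6) and Fosb (466 against 529 to 539). At these 9 peaks the groups do not overlap.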

How the results depend on the processing

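Scaling moved the split of the calls. Of the calls 44% were higher with the deposited values, 73.6% with total reads in peaks, 53% with TMM, 48.7% with RLE, 48.7% with loess correction, 52% with edgeR and 47.8% with DESeq2. With total reads 25957 peaks were higher and 9289 lower, 2007 and 1978 at promoters and 23950 and 7311 elsewhere, and 2 mature astrocyte promoters were lower. With loess correction 1024 promoter peaks and 3 mature astrocyte promoters were lower, the promoter offset was 0.035, TNF at 24 h at the lower peaks had a median of -0.22, and Stat3 (0.031), Cyld (0.010), Egr1 (0.082), Map2 (0.10), Ppp1r3c (0.026), Smad3 (0.036) and Myc (0.0014) changed sign. The cause was not tested. Leaving out each library in turn left 11890 to 15199 peaks higher and 15858 to 18116 lower, 669 to 855 and 4852 to 5772 at promoters, 11214 to 14344 and 10992 to 12470 elsewhere, 8 to 12 mature astrocyte promoters lower, 7 to 10 reactive astrocyte promoters higher, and the offset between -0.30 and -0.25. Over 125 named peaks and 22 settings, 2609 of 2748 values kept their direction and side of the threshold, 93 lost the call, 39 gained it and 7 changed sign. Replicate numbers in titles and in descriptions disagree for 72 h TNF. Deviations of same-numbered libraries correlated at -0.04 to 0.03 by title and 0.01 to 0.08 by description. So few libraries cannot show whether those of the same number share a brain or culture. With the replicate block 14122 peaks were higher and 17993 lower by title and 14767 and 18849 by description. Promoters within 500 bases were lower at 49.8% and within 2000 bases at 41.8%. Depth limits the weakest peaks, where a library of 1 week can rest on 2 reads.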
